A study of Mus musculus with 22 samples.

Results

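The subject is 7 fibroblast surface genes, followed here across an early time course of skin expansion in the mouse: Cd34, Dpp4, Pi16, Ly6a, Ly6c1, Thy1 and Cd248. They were taken from the count table by symbol, as 7 of its 55414 genes, and 7 of 7 were among the 17554 genes with enough counts to test. Their Ensembl identifiers are ENSMUSG00000016494, ENSMUSG00000035000, ENSMUSG00000024011, ENSMUSG00000075602, ENSMUSG00000079018, ENSMUSG00000032011 and ENSMUSG00000056481, in that order. All mice had back surgery. EXP mice received a hydrogel (an expander, which stretches the skin) under the skin of the neck region, and CTRL mice had the operation without an expander. RNA was sequenced from sorted skin fibroblasts on day 1 (4 CTRL and 5 EXP libraries), day 2 (3 and 3) and day 4 (4 and 3). Strain, sex and age of the mice, and whether 1 library held cells of 1 mouse, are not given in the sources used here, so p-values measure the spread between libraries. The sort removed cells with CD31, CD45, CD117 or EpCAM and kept live cells with both CD34 and PDGFRα. Cd34 is therefore a gene whose protein was also a sort criterion, and its RNA was measured only in cells that carried the protein.

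These proteins are widely used to recognise fibroblasts of the fascia and the vessel adventitia, which are studied as a reserve population that can give rise to more specialised fibroblasts and to adipocytes. CD34 is a sialomucin of blood progenitors, endothelium and many resting fibroblasts. DPP4 is a cell surface peptidase that trims dipeptides from chemokines and incretins, and PI16 is a membrane-linked protein of the CAP family. LY6A (Sca-1) and LY6C1 are small proteins held in the membrane by a lipid anchor, and so is THY1 (CD90), a general fibroblast and thymocyte antigen. CD248 (endosialin) is a lectin-like receptor of fibroblasts and pericytes.

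A pair of sequence sets helps to read the values. The first is the 250 bases before the transcription start of Cd34 and of Dpp4, which are shown because both genes were lower in EXP on days 1 and 2. They come from RefSeq for GRCm38.p6, while the submitters' processing notes name mm39 for the counts. The table of promoters matched 4 of the 7 genes (Cd34, Dpp4, Pi16 and Ly6c1) and held none under the names Ly6a, Thy1 and Cd248. Capitals mark a match to the letters of a TATA box. The Cd34 window is chr1:194938571-194938820 on the plus strand and the Dpp4 window is chr2:62412232-62412481 on the minus strand, each written 5′ to 3′ along its gene.
Cd34: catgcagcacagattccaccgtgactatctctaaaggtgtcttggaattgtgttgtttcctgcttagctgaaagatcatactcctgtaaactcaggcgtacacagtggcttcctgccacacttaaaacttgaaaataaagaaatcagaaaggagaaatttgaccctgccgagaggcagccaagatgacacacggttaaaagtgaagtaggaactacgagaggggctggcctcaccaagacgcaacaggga
Dpp4: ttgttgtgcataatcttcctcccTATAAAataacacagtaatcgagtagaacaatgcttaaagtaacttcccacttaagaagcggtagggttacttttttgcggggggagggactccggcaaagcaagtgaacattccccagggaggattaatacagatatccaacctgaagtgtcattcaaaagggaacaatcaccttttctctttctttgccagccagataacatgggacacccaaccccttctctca
Both strands were searched, and each motif is given with the share of 32851 promoter windows of the same length that hold it. A TATA box (letters TATAAA) is found in 12.4% of them and a GC box (letters GGGCGG) in 32.7%. A CCAAT box, of those 5 letters, is found in 33.8% and an AP-1 site (letters TGANTCA) in 6.75%. An E-box (letters CACGTG) is found in 6.02%. The other motifs were the CRE (letters TGACGTCA, 1.55% of windows) and the C/EBP site (letters TTGCNNNAA, 8.29% of windows). The Cd34 window held 0 matches to the 7 motifs, and the Dpp4 window held 1. That match has the letters of a TATA box and starts 227 bases before the transcription start. The GC content was 46.4% for Cd34 and 43.6% for Dpp4, below the median of 52.4% over all promoters. These matches describe the letters of the windows only.

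The second set is the start of the coding sequence of Ly6c1, Ly6c2 and Ly6a, shown because reads of these neighbouring family members can be confused. Bases 1 to 150 are given 5′ to 3′ from the transcripts of GENCODE M21, and capitals mark bases that differ from Ly6c1.
Ly6c1: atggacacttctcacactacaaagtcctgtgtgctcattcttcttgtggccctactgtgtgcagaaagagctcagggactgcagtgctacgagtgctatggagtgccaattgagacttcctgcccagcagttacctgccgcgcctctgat
Ly6c2: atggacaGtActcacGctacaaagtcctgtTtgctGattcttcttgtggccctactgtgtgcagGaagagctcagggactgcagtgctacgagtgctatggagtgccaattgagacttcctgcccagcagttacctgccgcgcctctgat
Ly6a: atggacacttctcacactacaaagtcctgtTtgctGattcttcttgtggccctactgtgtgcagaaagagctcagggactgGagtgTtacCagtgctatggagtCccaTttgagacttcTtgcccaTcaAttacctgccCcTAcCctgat
In this stretch Ly6c2 differed from Ly6c1 at 6 bases and Ly6a at 14. Over the whole coding sequence, identity was 97.7% between Ly6c1 and Ly6c2, 81.8% between Ly6c1 and Ly6a and 81.6% between Ly6c2 and Ly6a. Of all 50-base windows of the annotated Ly6c1 transcripts, 32.8% also occurred in another gene (21.5% in Ly6c2), and 19% of those of Ly6a did (15% in Ly6c1). Thy1 and Cd248 shared 0 such windows. How the authors counted reads that fit several genes is not given in the sources used here, so the levels of Ly6a and Ly6c1 are uncertain to that extent.

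Libraries held 21461294 to 30210204 counts, and the spread between replicates exceeded counting error in every group (27.3 to 437 in chi-square over its degrees of freedom). Levels below are CPM, read counts scaled to the same library total with TMM factors. A level of 3 counts, the least taken as detectable, came to 0.0805 to 0.157 CPM, far below all 7 genes in every library, and this limit covers counting error only. Apart from the groups, 192 genes that moved with Rnf10 set 7 libraries (3 CTRL and 2 EXP of day 1 and 2 CTRL of day 4) above the other 15. The EXP library of replicate 2 also stood apart in the sort genes: on each day it had the highest Cd34 and the lowest Pdgfra of its EXP group. For the 7 genes, results are given with and without these libraries where a call depended on them. For other named genes, no values without these libraries are given. Fibroblast identity was clear in all libraries, with the 3 collagen genes Col1a1, Col1a2 and Col3a1 taking 6.95% to 30.7% of all counts, while the sort-excluded genes Pecam1, Ptprc, Kit and Epcam had means over all libraries of 0.824, 0.0346, 0.124 and 0.924 CPM.

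Levels of different genes were compared per kilobase of annotated exon, in CTRL libraries of day 1. Ly6a was the most abundant at 1980 ± 165 CPM per kilobase (SD, n = 4), followed by Ly6c1 at 803 ± 136. Cd248 (199 ± 87.7) and Cd34 (193 ± 17.8) did not differ beyond their spread on this scale. Pi16 was at 54.5 ± 13.9, Dpp4 at 32.6 ± 11 and Thy1 at 26.2 ± 8.28 CPM per kilobase. Dividing by the longest transcript instead put Cd34 (460) above Cd248 (199), and Thy1 (45.3) above Dpp4 (39.2), so the order within these pairs depends on the length used.

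**Figure D1:**
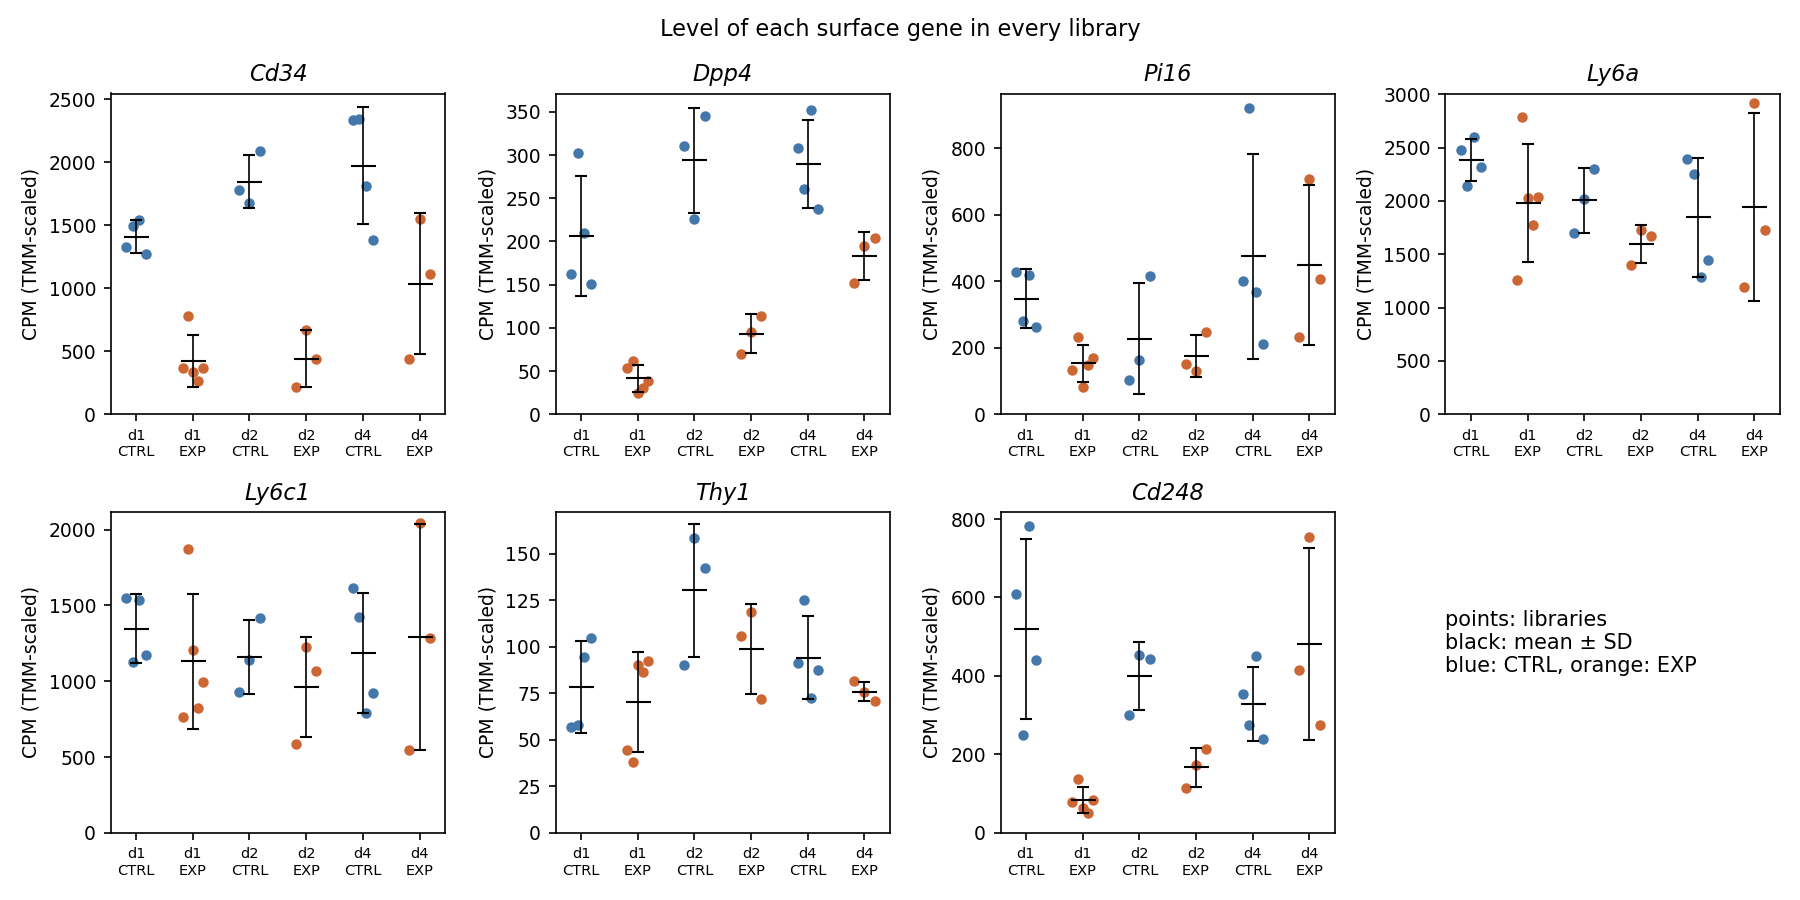
Level of each of the 7 genes in every library, in TMM-scaled CPM from 0 on a linear axis, by day (d1, d2, d4) and arm; points are libraries, black marks are the mean and SD. EXP libraries (orange) lie below all CTRL libraries (blue) for Cd34, Dpp4 and Cd248 on days 1 and 2, and the arms overlap on every day for Ly6a, Ly6c1 and Thy1.

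On day 1, the EXP arm had less Cd34, Dpp4, Pi16 and Cd248 RNA than the CTRL arm, while Ly6a, Ly6c1 and Thy1 did not pass the test. Thus 4 of the 7 genes were called lower and 0 higher in edgeR's quasi-likelihood test, at an adjusted p under 0.05. Over all genes tested, 28.6% were called on this day, with 14.7% of all genes lower and 13.9% higher. The 4 called genes were also those whose EXP libraries all lay below the CTRL libraries, as 12.2% of all genes did, while 11.7% lay above. The median log2 fold change of the 7 genes was -1.18, beside 0.0169 over all genes. In bulk RNA, fewer cells of a type and less RNA per cell cannot be told apart.

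Cd34 stood at 1325, 1491, 1544 and 1274 CPM in CTRL replicates 1 to 4 of day 1. In EXP replicates 1 to 5 it stood at 366, 778, 336, 262 and 364 CPM. The groups did not overlap, and EXP replicate 2, the highest of its group, was still well below the lowest CTRL library. Its log2 fold change was -1.74, with SE 0.34 and adjusted p 0.00081, which is 3.35-fold lower. Without EXP replicate 2 it was -2.08 (adjusted p 1.38e-04). In a fit of only those 5 libraries of day 1 that the Rnf10 genes set high, it was -1.38 (adjusted p 0.0294).

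Dpp4 was at 162, 303, 210 and 150 CPM in the CTRL replicates of day 1, against 53.4, 61.6, 24.1, 30.4 and 39 in the EXP replicates. Every EXP library was far below the lowest CTRL library. The log2 fold change was -2.31 (SE 0.26, adjusted p 6.2e-06), which is 4.95-fold lower, and within the 5 libraries set high by the Rnf10 genes it was -1.998 (adjusted p 0.00669).

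Cd248 was at 609, 248, 781 and 439 CPM in CTRL and at 78.8, 138, 63.8, 51.6 and 83.3 CPM in EXP on day 1. The CTRL libraries were themselves widely spread, and the groups did not overlap. With a level 6.25-fold lower, or -2.64 on the log2 scale (SE 0.35, adjusted p 2.68e-05), it had the largest difference of the 7 genes on any day, and within the 5 libraries set high it was -2.37 (adjusted p 0.018). Pericytes also carry CD248, and the summed level of 9 pericyte and smooth muscle genes was 50 to 92.2 CPM in CTRL and 21.5 to 45.7 CPM in EXP on this day. Most of that sum was Kcnj8 and Abcc9, with means of 29.9 and 24.3 CPM in CTRL and 12.8 and 7.43 in EXP. Cspg4 had means of 10.2 CPM in CTRL and 4.44 in EXP, while Notch3 had a higher mean in EXP (0.554 and 0.623). The pericyte marker Higd1b was at 0 in every EXP library and at most at 0.0824 CPM in the CTRL libraries, which is below 3 counts. Of the 8 of these marker genes that could be tested, 0 were higher and 2 lower in EXP, where 14.7% of all genes were lower. The part of these marker genes in the Cd248 difference was not tested.

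Pi16 was at 427, 280, 420 and 261 CPM in CTRL and at 134, 234, 83.1, 148 and 168 CPM in EXP on day 1. The groups did not overlap, although EXP replicate 2 came close to the CTRL range. The log2 fold change was -1.18 (SE 0.43, adjusted p 0.0476), 2.26-fold lower. This call lay close to the threshold. Leaving out any of CTRL replicates 1, 2 and 3 or EXP replicates 1, 3, 4 and 5 of day 1 ended it, with adjusted p of 0.0581 to 0.113, and within the 5 libraries set high it was -1.07 (adjusted p 0.0549).

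The 3 genes of lipid-anchored proteins had intervals of the difference that include 0 on day 1. Ly6a had a log2 fold change of -0.27 on day 1 (95% interval -0.78 to 0.24, adjusted p 0.435). The EXP libraries of day 1 ran from 1260 to 2789 CPM and spanned all CTRL libraries, which ran from 2139 to 2597. For Ly6c1 the value was -0.25 (95% interval -0.93 to 0.425, adjusted p 0.597), and for Thy1 it was -0.16 (95% interval -0.72 to 0.40, adjusted p 0.692). These intervals allow falls of these genes that are smaller than the fitted falls of Cd34, Dpp4 and Cd248, and whether the genes differed from one another in their response was not tested.

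On day 2, Cd34 and Dpp4 were again lower in EXP, Cd248 was lower by less than on day 1, and Pi16 and the 3 lipid-anchored genes did not pass. Of the 7 genes, 3 were called lower and 0 higher. Over all genes, 13.4% were called on day 2, with 5.71% lower and 7.72% higher. The same 3 members had all EXP libraries below all CTRL libraries, as did 18.4% of all genes, while 20.9% had them above. The median log2 fold change of the 7 was -0.40, beside 0.021 over all genes.

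Cd34 was at 1776, 1677 and 2086 CPM in CTRL and at 216, 665 and 440 CPM in EXP on day 2. All EXP libraries were far below all CTRL libraries, and replicate 2 was again the highest of the EXP libraries. The difference was -2.07 on the log2 scale (SE 0.43, adjusted p 0.00379), which is 4.19-fold lower. Dpp4 was at 310, 226 and 345 CPM in CTRL and at 69.3, 95.3 and 114 CPM in EXP. It differed by -1.66 (SE 0.31, adjusted p 0.00187), or 3.16-fold, again without overlap.

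Cd248 was at 300, 454 and 444 CPM in CTRL and at 115, 172 and 214 CPM in EXP on day 2. The groups did not overlap, and the log2 fold change of -1.26 (SE 0.42, adjusted p 0.0487) lay close to the threshold. Leaving out any 1 of the 6 libraries, CTRL or EXP, ended the call, while the log2 fold change stayed between -1.49 and -1.05 and the adjusted p ran from 0.062 to 0.214. The pericyte and smooth muscle sum of day 2 was 88.7 to 97.7 CPM in CTRL and 30.1 to 52.9 CPM in EXP, and its part in this difference was not tested. Most of that sum in CTRL was Kcnj8 and Abcc9, with means of 43.8 and 35.5 CPM in CTRL and 15.8 and 17.1 in EXP. Des had means of 5.05 CPM in CTRL and 0.85 in EXP, and Cspg4 had 8.24 and 8.23. The pericyte gene Rgs5 had means of only 0.0332 CPM in CTRL and 0.133 in EXP. Of the 8 marker genes tested, 0 were higher and 1 lower in EXP on day 2, where 5.71% of all genes were lower.

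Pi16 on day 2 was at 102, 163 and 416 CPM in CTRL and 151, 130 and 246 CPM in EXP. CTRL replicate 3 was above all others and the other libraries of both arms were mixed, with a log2 fold change of -0.37 (95% interval -1.48 to 0.74, adjusted p 0.699). Its direction rested on that library: without it the value was 0.39 (adjusted p 0.711). Ly6a (-0.33, 95% interval -0.95 to 0.29), Ly6c1 (-0.27, 95% interval -1.10 to 0.56) and Thy1 (-0.40, 95% interval -1.08 to 0.28) had adjusted p of 0.509, 0.706 and 0.456.

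On day 4, 0 of the 7 genes passed, and all 7 also missed the threshold in DESeq2 and in limma voom. At an unadjusted p under 0.05 there were 2 of 7, Cd34 and Dpp4, both lower in EXP, where 36.2% of all genes lay under that value. Over all genes, 22.5% were called on this day, 9.66% lower and 12.8% higher. EXP libraries lay below all CTRL libraries for 1 member, Dpp4, and above them for none (13.8% of all genes). The median of the 7 was -0.08, beside 0.0315 over all genes.

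Cd34 was at 2338, 2346, 1812 and 1383 CPM in CTRL on day 4. The EXP replicates were at 442, 1552 and 1116 CPM, so that 1 EXP library lay at the level seen on days 1 and 2 and the other 2 near or within the CTRL range. The log2 fold change was -0.93 (SE 0.39, adjusted p 0.0948), and leaving out 1 library gave values from -1.36 (adjusted p 0.0515, without EXP replicate 2) to -0.56 (adjusted p 0.375, without EXP replicate 1). Dpp4 was at 308, 261, 353 and 238 CPM in CTRL and 151, 194 and 204 CPM in EXP. Its groups did not overlap, as was true in the lower direction for 11.8% of all genes on this day, and its log2 fold change of -0.66 (SE 0.29, adjusted p 0.105) did not pass.

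Cd248 on day 4 was at 353, 274, 450 and 238 CPM in CTRL and 414, 753 and 276 CPM in EXP. The arms overlapped, with EXP replicate 2 above all others, and the fitted difference was now positive at 0.55 (SE 0.38, adjusted p 0.31). Without EXP replicate 2 it was 0.04 (adjusted p 0.956). Pi16 (-0.08, 95% interval -1.12 to 0.95), Ly6a (0.08, 95% interval -0.50 to 0.65), Ly6c1 (0.12, 95% interval -0.65 to 0.89) and Thy1 (-0.31, 95% interval -0.95 to 0.33) did not pass, with adjusted p of 0.923, 0.871, 0.844 and 0.496.

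**Figure D2:**
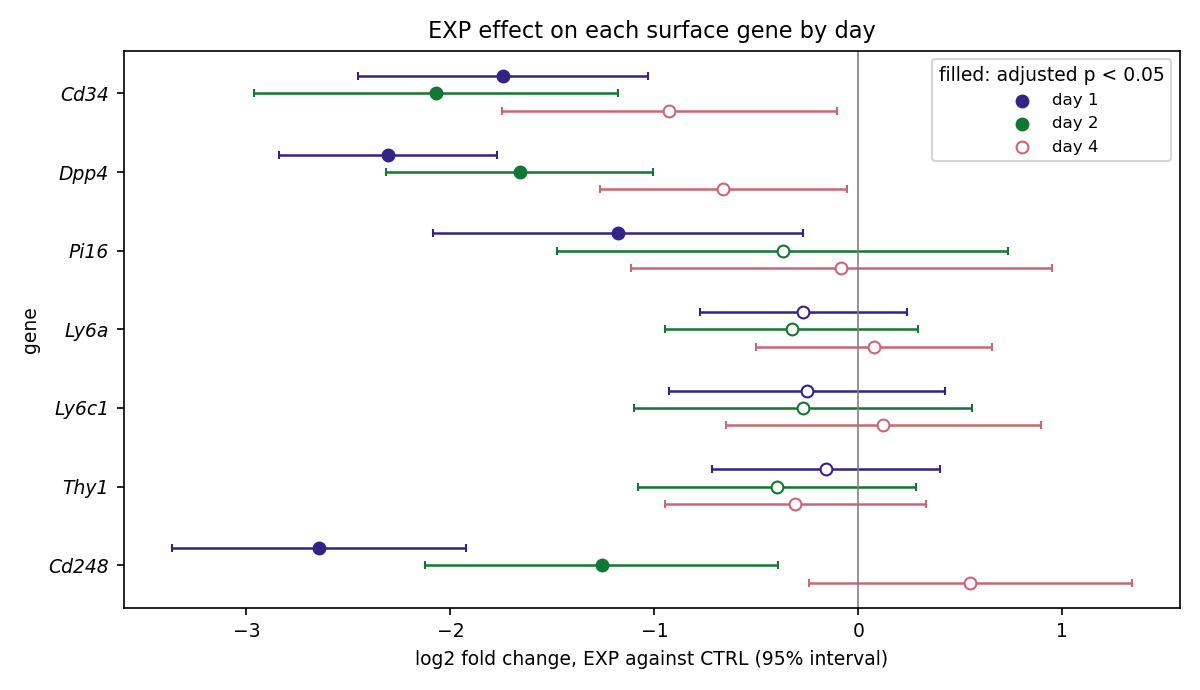
Log2 fold change of EXP against CTRL for each gene and day from the edgeR fit, with 95% intervals; filled points passed at an adjusted p under 0.05. Cd34, Dpp4 and Cd248 are lower on days 1 and 2, Pi16 on day 1, and on day 4 every point is open, with Cd248 at 0.55.

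A joint test over the 3 days asked for each gene if the difference between EXP and CTRL itself depended on the day. Dpp4 (adjusted p 0.0247) and Cd248 (adjusted p 0.00235) passed, 2 of 7 genes, where 8.82% of all genes were called. The Dpp4 difference went from -2.31 through -1.66 to -0.66, and that of Cd248 from -2.64 through -1.26 to 0.55. Dpp4 did not pass without CTRL replicate 4 of day 4 (adjusted p 0.0517) or without EXP replicate 2 of day 4 (adjusted p 0.0558). With a term for the replicate number added to the fit, neither Dpp4 (adjusted p 0.0664) nor Cd248 (adjusted p 0.0749) passed. For Cd34 (adjusted p 0.333) and Pi16 (adjusted p 0.468) no difference between days was detected, although their calls differed from day to day. Ly6a, Ly6c1 and Thy1 had adjusted p of 0.731, 0.83 and 0.917.

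Within the EXP arm, Cd34, Dpp4, Pi16 and Cd248 changed over the days, 4 of 7 genes where 14.3% of all genes were called. The mean of Cd248 went from 83.1 ± 33 CPM (SD, n = 5) on day 1 to 167 ± 49.6 (SD, n = 3) on day 2 and 481 ± 245 (SD, n = 3) on day 4 (adjusted p 3.79e-04). Dpp4 went from 41.7 ± 15.6 through 92.9 ± 22.5 to 183 ± 27.8 CPM over the same days (adjusted p 1.66e-04), and no library of 1 day overlapped those of another. Cd34 (421 ± 204, 440 ± 224 and 1037 ± 559 CPM, adjusted p 0.0296) and Pi16 (153 ± 54.9, 176 ± 62 and 449 ± 241 CPM, adjusted p 0.0494) passed as well, with their highest means on day 4. Leaving out EXP replicate 2 of day 4 ended both of these calls (adjusted p 0.293 and 0.381). Cd34 was also lost without EXP replicate 1, 3 or 5 of day 1 or replicate 3 of day 4 (up to 0.0683), and Pi16 without any of 8 of the 11 EXP libraries in all. The Pi16 call was also lost without TMM, without the filter on low counts, in limma voom and with a covariate for the Rnf10 split (adjusted p 0.0664 to 0.13).

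Within the CTRL arm, 0 of the 7 genes changed over the days in edgeR, DESeq2 or limma voom, where edgeR called 0.291% of all genes. At an unadjusted p under 0.05 there were 0 as well, against 14.2% of all genes. The CTRL means of Cd34 were 1409 ± 130 (SD, n = 4), 1847 ± 213 (SD, n = 3) and 1970 ± 464 CPM (SD, n = 4) on days 1, 2 and 4 (adjusted p 0.707). The labels give no date of sorting or sequencing, so a change over days within an arm and a difference of batch cannot be told apart.

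Over the 6 groups, the means of Cd34 fell in the order CTRL of days 4, 2 and 1, then EXP of days 4, 2 and 1. The libraries of each group overlapped with those of the next, other than CTRL of day 2 with CTRL of day 1. For Dpp4 the order was CTRL of days 2, 4 and 1, then EXP of days 4, 2 and 1, and EXP of day 4 did not overlap with EXP of day 2, nor EXP of day 2 with EXP of day 1. For Cd248, CTRL of day 1 (520 CPM) was first and EXP of day 4 (481 CPM) second, and EXP of days 2 and 1 were last. Ly6a means ran only from 1598 to 2382 CPM, those of Ly6c1 from 962 to 1347 and those of Thy1 from 70.3 to 130 CPM, and all neighbours in these orders overlapped. The neighbours of Pi16, from 153 to 475 CPM, overlapped as well.

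The sort rested on CD34 and PDGFRα, and on days 1 and 2 the RNA of the first was lower in EXP and that of the second higher. Pdgfra, the receptor for platelet-derived growth factor that marks fibroblasts, was at 356 ± 44.7 CPM (SD, n = 4) among CTRL libraries of day 1 and 638 ± 99.5 (SD, n = 5) among EXP libraries, a rise of 0.84 on the log2 scale (adjusted p 0.0154). It rose by 1.71 on day 2 (adjusted p 0.00134) and by 0.79 on day 4 (adjusted p 0.0456). The call of day 4 lay close to the threshold, and the arms overlapped. EXP replicates 1 to 3 of that day were at 864, 295 and 378 CPM, against 274.5 to 334.7 CPM in CTRL. The ratio of Cd34 to Pdgfra CPM was 3.6 to 4.64 in CTRL and 0.379 to 1.67 in EXP on day 1. The values of day 2 were 7.38 to 8.09 in CTRL and 0.212 to 1.43 in EXP, and on day 4 it was 4.96 to 8.55 and 0.511 to 5.26. Only on day 4 did the 2 arms overlap in this ratio, through EXP replicate 2 at 5.26.

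**Figure D3:**
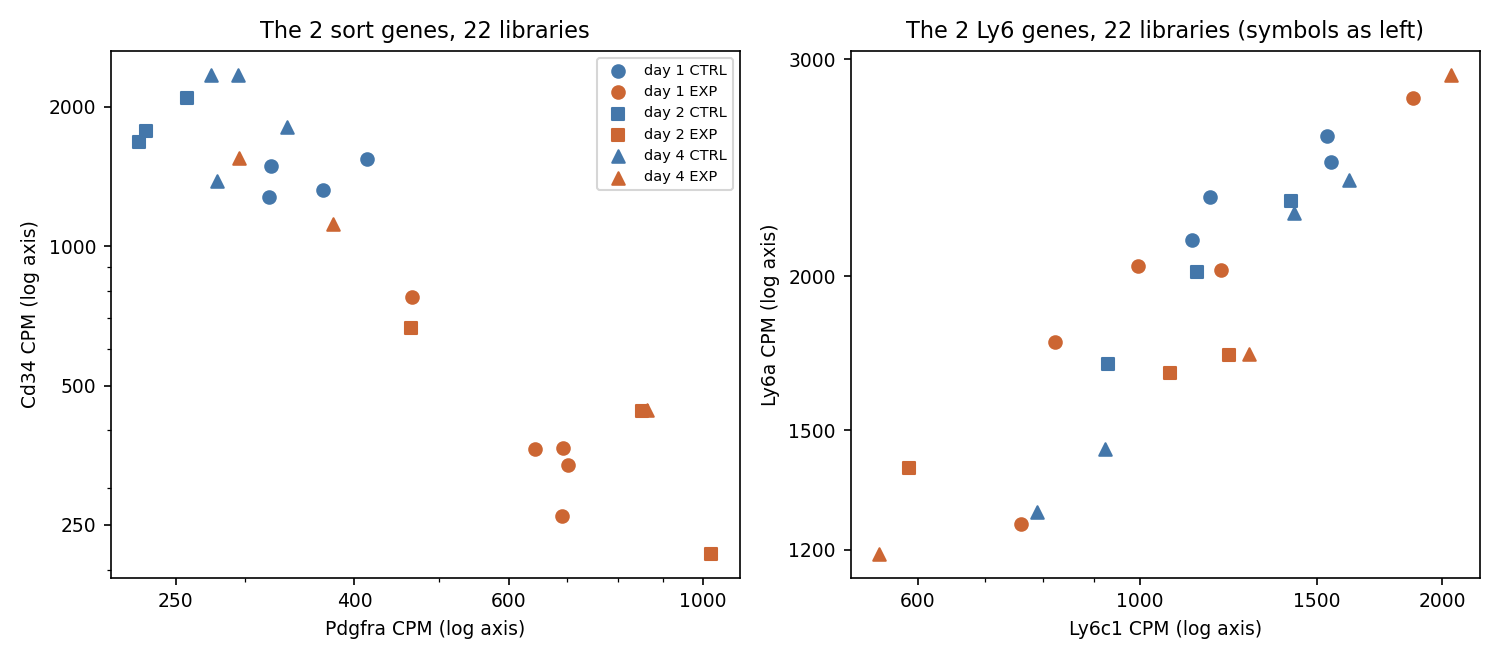
Left, Cd34 against Pdgfra CPM in the 22 libraries; right, Ly6a against Ly6c1 CPM in the same libraries, both on log axes, with colour for the arm and shape for the day. EXP libraries spread from the lower right, with a Cd34 to Pdgfra ratio of 0.212 at the extreme, to the 2 day 4 libraries next to the CTRL libraries, while Ly6a and Ly6c1 keep a ratio of 1.35 to 2.38 throughout.

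Endothelial cells also express Cd34. The sum of 11 endothelial genes was 6.1 to 10.1 CPM in CTRL and 1.57 to 9.67 in EXP on day 1, and 0.853 to 1.51 and 2.4 to 8.27 on day 2. On day 4 it was 4.59 to 13 CPM in CTRL and 26.7 to 60 in EXP. Most of the EXP sum was Tek, with means of 4.58 CPM in CTRL and 28.4 in EXP. Kdr, with means of 0.204 and 1.78 CPM, was higher in EXP (3.11 on the log2 scale, adjusted p 0.0179). The means of Cdh5, Emcn, Cldn5 and Erg were at most 0.536 CPM in either arm on this day. Every gene of this list had a higher mean in EXP than in CTRL on day 4. The median log2 fold change of those tested was 1.61. Means were 0.911 CPM in CTRL and 2.70 in EXP for Pecam1, 0.271 and 1.19 for Vwf, and 0.44 and 1.36 for Egfl7. The arms overlapped in each of these genes. Tie1, Emcn and Cldn5 were at 0 in all CTRL libraries of day 2 and Tie1 in all EXP libraries of day 2. Of the 10 endothelial genes tested, edgeR called 0 on day 1 (0 at an unadjusted p under 0.05). It called 1 as higher on day 2 and 2 on day 4. Of all genes, it called 28.6%, 13.4% and 22.5% on days 1, 2 and 4. The part of endothelial cells in the Cd34 levels was not tested.

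Markers of other cell types also differed between some groups, and their part in the results for the 7 genes was not tested. The sum of 9 keratinocyte and hair follicle genes was 54.6 to 95.7 CPM in CTRL and 24.7 to 46 in EXP on day 1, 15.2 to 43.3 and 111 to 190 on day 2, and 20.5 to 40.6 and 29.2 to 55.8 on day 4. The hair follicle stem cell gene Lgr5 was the 1 gene of this list called on day 2 (3.53 on the log2 scale, adjusted p 3.7e-04). Lgr5 alone was at 106 to 183 CPM in the EXP libraries of day 2 and made up most of the sum. The median log2 fold change of the 8 tested genes was -1.33 on that day, and Krt10, for one, had a mean of 8.18 CPM in CTRL and 2.97 in EXP. The 6 adipocyte genes summed to 0.329 to 13.3 CPM in CTRL and 0 to 0.255 in EXP on day 1, 0 to 2.51 and 2.46 to 53.8 on day 2, and 0.129 to 1.11 and 1.82 to 353 on day 4, when 5 of 5 tested were higher in EXP. Among these, Plin1, Cidec and Pck1 had 3 counts or fewer in every CTRL library of day 4. The sums in EXP replicates 1 to 3 of day 4 were 1.82, 116 and 353 CPM. The sums of 10 leukocyte genes (36.3 to 165 CPM over all groups), 6 Schwann cell genes (4.59 to 17.5) and 7 melanocyte and mast cell genes (1.93 to 37) overlapped between the arms on days 1 and 4, whereas on day 2 the leukocyte sum was 114 to 165 CPM in CTRL and 65.5 to 91 in EXP, and the melanocyte and mast cell sum was 5.97 to 14.1 and 15.3 to 37. Of the genes tested in these 3 lists, edgeR called 2 of 5 leukocyte genes on day 1 (1 higher, 1 lower) and 1, higher, on each later day. It called 1 of 5 Schwann cell genes, lower, on day 1, and 1 of 3 melanocyte and mast cell genes, lower, on each of days 2 and 4. Over all genes, edgeR called 28.6%, 13.4% and 22.5% on days 1, 2 and 4. Most of the leukocyte sum of day 2 was Csf1r, at 102 to 158 CPM in CTRL and 33.7 to 74.3 in EXP, whereas Cd68 had means of 3.96 and 14.4 CPM. Most of the melanocyte and mast cell sum of day 2 was Mlana, with means of 9.22 CPM in CTRL and 23.1 in EXP. Pmel had means of 1.00 and 0.611 CPM, and Tyrp1 and Cpa3 were at 0 in every EXP library of that day. Leukocyte-defining Ptprc was at 0 in all CTRL libraries of day 4.

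Ly6a and Ly6c1 followed each other closely. Likeness was measured as the root mean square difference of log2 CPM over the 22 libraries, after each gene was centred on its own mean, and is a description that shared composition and depth also enter. For Ly6c1 the nearest genes of all were Ly6c2 (0.127), Ly6a (0.214) and Dpt (0.262), where the median over all genes was 0.754. For Ly6a they were Ly6c2 (0.181), Ly6c1 (0.214) and Srp14 (0.22). Ly6c1 shares sequence with both Ly6c2 and Ly6a, as shown above, and the part of shared reads in this likeness was not tested. Dpt codes for dermatopontin of the matrix, and Srp14 for a subunit of the signal recognition particle.

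Other genes of the family were counted as well. Of 15 Ly6 family genes of the same chromosomal cluster other than the members, 14 were in the table and 7 had enough counts to test. On day 1, 0 were higher and 2 lower in EXP, Ly6e (-0.83, adjusted p 0.0013), a lipid-anchored protein like its relatives, and Lynx1 (-0.89, adjusted p 0.00114), a modulator of acetylcholine receptors. On days 2 and 4, 0 of the 7 were called by edgeR, and at an unadjusted p under 0.05 there were 2 and 0. Of all genes, 27.9% and 36.2% lay under that value on days 2 and 4. The shares of all genes called were 28.6%, 13.4% and 22.5% on days 1, 2 and 4. Ly6c2 had log2 fold changes of -0.38, -0.36 and 0.02 on days 1, 2 and 4, with adjusted p of 0.377, 0.572 and 0.981. The median of the tested family genes was -0.50, -0.54 and -0.15 on the 3 days.

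Ly6a and Ly6c1 are known to respond to interferon. Of 12 other interferon-stimulated genes tested, 0 were higher and 6 lower in EXP on day 1, 0 and 2 on day 2, and 1 and 2 on day 4, with medians of -1.40, -0.46 and -0.69. Over all genes tested, 28.6%, 13.4% and 22.5% were called on the 3 days. Gbp2, a guanylate-binding protein, was lower on each day (-1.18, -1.55 and -2.01, adjusted p 0.0151, 0.0222 and 0.00344). The GTPase Igtp was lower on each day too (-1.60, -1.92 and -2.14, adjusted p 0.00231, 0.00782 and 0.00265). Irf7, a transcription factor of this response, had values of -1.23, -0.68 and -0.81 that did not pass (adjusted p 0.0781, 0.516 and 0.337).

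The genes nearest to Cd34 over the libraries were Creb5 (0.322), Gm16897 (0.329), Chrd (0.359), P4ha2 (0.368) and Col3a1 (0.381), against a median of 1.24. Creb5, a transcription factor, differed by -1.72, -2.28 and -1.07 on days 1, 2 and 4 (adjusted p 6.69e-05, 1.83e-04 and 0.0142). P4ha2, a collagen prolyl hydroxylase subunit, differed by -2.28, -1.79 and -1.01 (adjusted p 1.47e-06, 1.83e-04 and 0.00572). Chrd, coding for the secreted BMP antagonist chordin, differed by -1.77, -2.22 and -0.49 (adjusted p 3.98e-04, 0.00138 and 0.341), and Col3a1, a fibrillar collagen, by -1.35, -1.48 and -0.60 (adjusted p 0.00188, 0.0107 and 0.207). Gm16897 lies on the opposite strand and its exons overlap those of Cd34. Its counts were 0.162% to 0.44% of those of Cd34, and since it is not given whether reads were counted by strand, its counts cannot be told apart from reads of Cd34 itself.

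Dpp4 was nearest to Ndrg4 (0.352), P4ha2 (0.355) and Fam114a1 (0.394), with a median of 1.30. Ndrg4 differed by -2.03, -1.28 and -0.54 on days 1, 2 and 4 (adjusted p 8.45e-06, 0.0057 and 0.149) and Fam114a1 by -1.78, -0.997 and -0.40 (adjusted p 2.38e-05, 0.0237 and 0.283). P4ha2 was the only gene among the nearest of both Cd34 and Dpp4 under this rule of 5 and 3 genes. Cd248 was nearest to Emilin2 (0.468), an elastic fibre protein, Naaa (0.47), a lipid amidase, and Smim1 (0.473), with a median of 1.27. Emilin2 differed by -1.97, -0.33 and 0.81 on days 1, 2 and 4 (adjusted p 1.8e-04, 0.629 and 0.107), and Naaa by -1.61, -1.24 and -0.04 (adjusted p 4.49e-05, 0.00601 and 0.925).

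The genes nearest to Pi16 were Lgi4 (0.535), Itgb3bp (0.561) and Tspan11 (0.562), with a median of 1.06. The tetraspanin gene Tspan11 (-0.83, adjusted p 0.00714) and Itgb3bp (-1.38, adjusted p 0.0163) were lower in EXP on day 1, and no other value of the 3 genes passed on any day. Those nearest to Thy1 were Slc25a45 (0.326), Gm6682 (0.327) and Clstn1 (0.333), with a median of 0.744. Their log2 fold changes ran from -0.52 to -0.06 over the 3 days, with adjusted p of 0.163 to 0.95.

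Among the members themselves, Cd34 and Dpp4 had a difference of 0.55, Dpp4 and Cd248 of 0.652, and Cd34 and Cd248 of 0.733. Dpp4 ranked 74th among 17553 genes by nearness to Cd34, and Cd248 ranked 109th by nearness to Dpp4. Dpp4 and Pi16, whose proteins are often used together, were 0.94 apart, and Pi16 ranked 1369th by nearness to Dpp4. Thy1 was at least 0.601 from each of the other 6 genes.

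A list of 24 further genes known from Dpp4- and Pi16-positive fibroblasts was counted beside the members, all 24 with enough counts to test. Creb5, Emilin2 and Dpt, named above for their likeness to a member, are among them. On day 1, 12 were lower and 0 higher in EXP, with a median of -1.10. On day 2, 7 were lower and 0 higher (median -0.59), and on day 4, 3 were lower and 6 higher (median 0.12). Of all genes tested, 14.7% were lower and 13.9% higher on day 1. These shares were 5.71% and 7.72% on day 2, and 9.66% and 12.8% on day 4. On day 4 the list held calls in both directions. Its 3 most abundant genes were Gfpt2 (0.33, 0.15 and 0.35, an enzyme of hexosamine synthesis), Fbn1 (-1.04, -0.75 and -0.12, the microfibril protein fibrillin) and Adgrd1 (-0.28, -0.70 and -0.17, an adhesion receptor), of which Fbn1 passed on day 1 (adjusted p 0.00587) and no other value passed.

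Apart from the 3 most abundant genes of each list, the genes named from here on were chosen after their values were seen. Lower on both day 1 and day 2 were 6 genes, Cd55, Creb5, Tppp3, Pcolce2, Igfbp6 and Clec3b, which are 6 of the 12 lower on day 1 and of the 7 lower on day 2. Creb5, Tppp3 and Pcolce2 were also lower on day 4. The share of all genes called on more than 1 day was not computed, so these counts have no share to be set against. Cd55, a surface inhibitor of complement, was at 116 ± 38.4 CPM (SD, n = 4) among CTRL and 29.1 ± 5.25 (SD, n = 5) among EXP libraries of day 1 (-1.99, adjusted p 9.24e-05), differed by -2.25 on day 2 (adjusted p 8.81e-04), and by -0.35 on day 4 (adjusted p 0.486). Pcolce2, an enhancer of procollagen processing, differed by a similar amount on every day (-1.20, -1.36 and -1.16, adjusted p 0.00655, 0.0224 and 0.0279). Igfbp6, an IGF-binding protein, differed by -1.27, -1.85 and -0.65 (adjusted p 0.00771, 0.00685 and 0.238), and Clec3b (tetranectin) by -1.71, -2.73 and -0.69 (adjusted p 0.0228, 0.0145 and 0.447). Tppp3, a tubulin-binding protein, differed by -1.05, -2.87 and -1.57 (adjusted p 0.0131, 1.83e-04 and 0.00573).

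A set of 3 genes, Sema3c, Wnt2 and Mfap5, passed as lower on day 1 and as higher on day 4. The share of all genes with this pattern was not computed either. The microfibril gene Mfap5 was at 112 ± 26 CPM (SD, n = 4) among CTRL and 52.5 ± 16.6 (SD, n = 5) among EXP libraries of day 1, and at 95.8 ± 19.4 (SD, n = 4) and 648 ± 438 (SD, n = 3) on day 4. Its log2 fold changes were -1.09, 0.17 and 2.76 (adjusted p 0.0173, 0.828 and 2.44e-04). Sema3c, a secreted semaphorin, differed by -1.10, 0.04 and 1.26 (adjusted p 0.0228, 0.962 and 0.0282), and the Wnt ligand gene Wnt2 by -2.53, 2.50 and 3.65 (adjusted p 0.0156, 0.119 and 0.00615). Anxa3, Efhd1 and Uchl1 were the other genes higher on day 4, with 3.88 (adjusted p 0.00169) for Anxa3 and 2.85 (adjusted p 0.00997) for Efhd1. Uchl1 had 3 counts or fewer in every CTRL library of day 4 and gets no fold here.

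**Figure D4:**
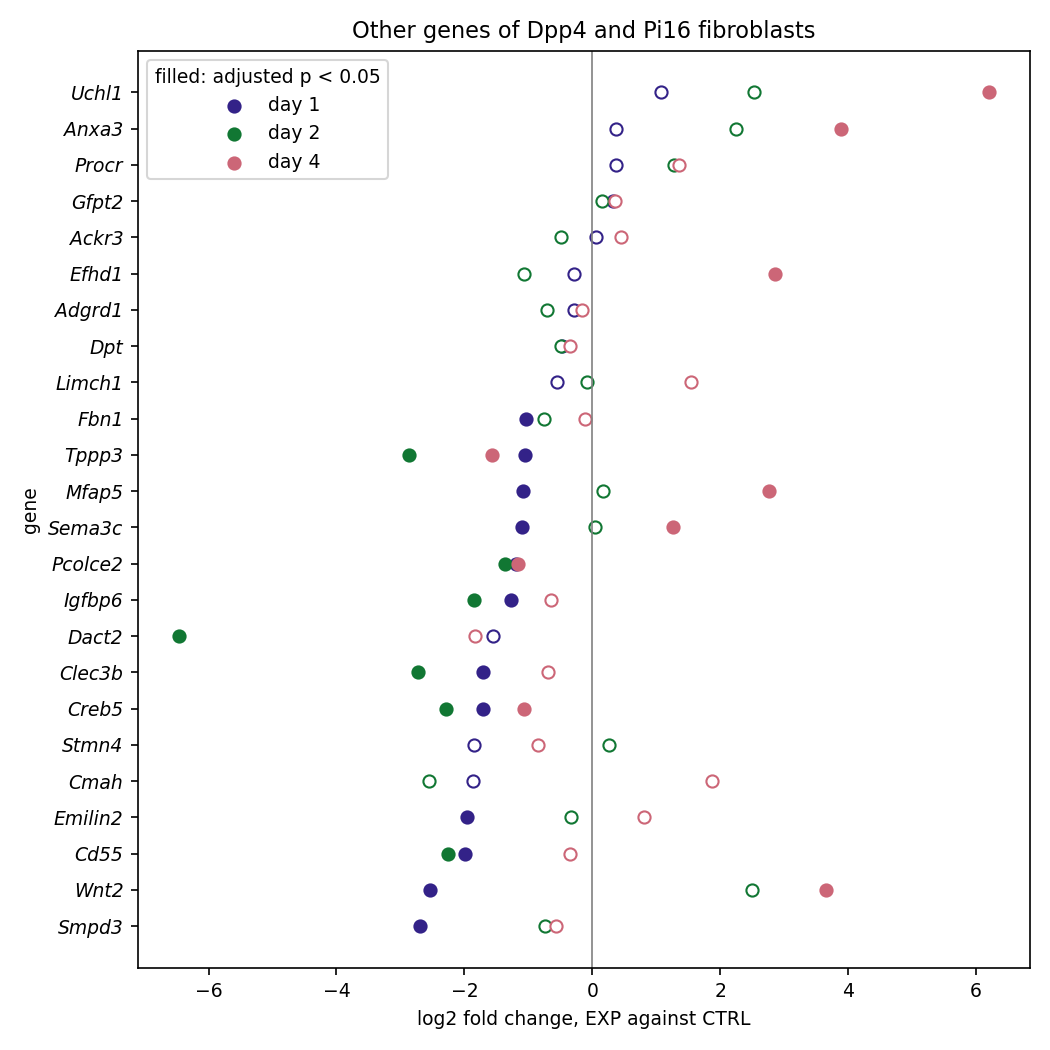
Log2 fold change of EXP against CTRL on each day for the 24 further genes of Dpp4- and Pi16-positive fibroblasts, ordered by day 1; filled points passed at an adjusted p under 0.05. On day 1 all 12 filled points lie left of 0, and on day 4 there are 6 to the right and 3 to the left; the points of Dact2 on day 2 and of Uchl1 on days 2 and 4 have a group at 3 counts or fewer in every library and depend on the prior count.

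Genes of committed preadipocytes, a later stage that ICAM1 marks, gave other counts. Of 13 tested, 1 was higher and 3 lower on day 1, and 6 were higher and 2 lower on day 2 and also on day 4, with medians of -1.28, 1.81 and 1.96. The shares of all genes called were 28.6%, 13.4% and 22.5% on days 1, 2 and 4. Icam1, the adhesion receptor, differed by 0.67, 0.22 and -0.92 (adjusted p 0.0376, 0.672 and 0.0208). Lpl, lipoprotein lipase, differed by -1.98, 1.43 and 1.28 (adjusted p 0.00617, 0.132 and 0.105), and Apoe by 0.49, -0.39 and -0.24 (adjusted p 0.462, 0.699 and 0.777). Fabp4, a fatty acid carrier, differed by -1.49, 5.09 and 6.46 (adjusted p 0.166, 0.00925 and 7.55e-04), and F3, tissue factor, by -0.95, 4.08 and 2.63 (adjusted p 0.107, 3.7e-04 and 0.00204). The CTRL means of Fabp4 were only 0.501 and 1.01 CPM on days 2 and 4. Zfp423 and Col15a1 passed as lower on both day 1 and day 2. Col15a1 also passed as lower on day 4, with means of 159 CPM in CTRL and 38.7 in EXP. The adipocyte sums given above also differed between the arms on days 2 and 4, and their part in these calls was not tested.

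Genes of the papillary dermis, the upper layer, counted 1 higher and 1 lower of 10 on days 1 and 2, and 1 higher and 5 lower on day 4 (medians -0.17, -0.49 and -1.20). Over all genes, the shares called on the 3 days were 28.6%, 13.4% and 22.5%. Pdpn (podoplanin) was higher on days 1 and 2 (1.78 and 1.44, adjusted p 2.34e-05 and 0.00201) and had 0.35 on day 4 (adjusted p 0.325). Entpd1, the ectonucleotidase CD39, had -0.05, -0.90 and -2.60 (adjusted p 0.953, 0.327 and 0.00543), and the guidance gene Ntn1 had -0.29, -0.90 and -1.34 (adjusted p 0.284, 0.0185 and 9.54e-04). Of 12 fibroblast identity genes, 1 was higher and 4 lower on day 1, 2 and 5 on day 2, and 3 and 5 on day 4 (medians -0.33, -0.44 and -0.83). Its most abundant genes besides Col3a1 were Col1a1 (-0.99, -1.85 and -1.13, adjusted p 0.0319, 0.00693 and 0.045) and Col1a2 (-0.93, -1.66 and -1.06, adjusted p 0.0495, 0.015 and 0.0634).

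Finally, 16 relatives of Cd34, Dpp4, Pi16 and Cd248 by protein family were counted, of which 13 could be tested. On day 1, 0 were higher and 3 lower, on day 2, 2 and 0, and on day 4, 3 and 2, with medians of -0.16, 0.46 and 0.36. Beside these counts, 28.6%, 13.4% and 22.5% of all genes were called on the 3 days. The day 2 median is 0.27 with Cd93, which had 3 counts or fewer in every library of an arm, set at its bound. Fap, the closest relative of Dpp4 and a marker of activated fibroblasts, differed by -1.55, 0.19 and 1.44 (adjusted p 0.00289, 0.818 and 0.0149). The lysosomal peptidase gene Dpp7 differed by -0.53, -0.44 and -1.20 (adjusted p 0.0383, 0.223 and 0.00148). Thbd, coding for thrombomodulin of the same lectin family as CD248, differed by 0.50, 1.78 and 2.83 (adjusted p 0.373, 0.0219 and 6.37e-04), and Glipr2, of the CAP family of PI16, by 0.80, 2.90 and 2.91 (adjusted p 0.193, 0.0035 and 0.0013). Crispld2, also of that family and the most abundant of the relatives, had 0.40, -0.26 and -0.92, which did not pass (adjusted p 0.33, 0.685 and 0.059).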

How the data were processed

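Sorted skin fibroblasts of 22 libraries were sequenced. The authors deposited raw read counts per gene. Per the submitters' processing notes, reads were handled with Trimmomatic and mm39; the aligner, counting tool, annotation and strand setting are not given in the sources used here. Symbols from GENCODE M21 named 52081 of 55414 identifiers; 0 columns lay outside the labels. M21 is on GRCm38, so no gene coordinates in mm39 are given.

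Counts were analysed in R 4.3.3 with edgeR 4.0.16: filterByExpr (minimum count 10), TMM, and the robust quasi-likelihood F-test with a mean per group over all libraries (16 residual degrees of freedom), with Benjamini-Hochberg adjustment over all 17554 genes and a threshold of 0.05. Log2 CPM used a prior count of 2. The test was checked on simulated counts with the same dispersion for every gene and group, so the check does not cover groups of unequal spread. Alternatives were DESeq2 1.42.0, its size factors, no TMM, totals without the 10 most abundant genes, no filter, limma voom (limma 3.58.1), fits of the compared groups alone, a replicate block, a library split covariate and leaving out each library. Fits within a side of the split were added after seeing the data.

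The members and gene lists were chosen with earlier results of these data known. Besides the members, the rule named the 3 genes most like each (5 for Cd34), the 3 most abundant tested genes of each list, and the sort genes; others were chosen after their values were seen. Libraries that share a replicate number did not correlate above 0.1 in every pair on any day, so the reported fit has no pairing.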

Additional observations from a re-analysis of the deposited data

Results flagged for a closer look

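A lone library stood well outside its group in 5 of 51 checks, a mark that about 5% of groups get by chance. The checks are not independent: 4 of the 5 concern 1 library, and 3 of these are Cd34, Pdgfra and their ratio. EXP replicate 2 of day 1 was far above the other 4 libraries in Cd34 (778 CPM, the others 262 to 366) and far below them in Pdgfra (465 CPM, the others 643 to 702). Its ratio of Cd34 to Pdgfra was 1.67, against 0.379 to 0.567. The summed pericyte and smooth muscle genes of the same library were at 45.7 CPM, against 21.5 to 26.1. CTRL replicate 4 of day 1 had a summed adipocyte level of 13.3 CPM, against 0.329 to 1.65 in the other 3.

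The difference between EXP and CTRL depended on the day for 23 of 67 genes, namely the members, Pdgfra, the 3 most abundant genes of each list and some of the genes picked by their values (edgeR's joint quasi-likelihood test, adjusted over all genes). Since some were picked by their values, this is no rate to set against the 8.82% over all genes. Counted whole, the lists held 9 of 24 such genes of Dpp4- and Pi16-positive fibroblasts and 8 of 13 of preadipocytes. There were 3 of 13 relatives of the members, 2 of 10 papillary genes, 1 of 12 fibroblast identity genes, 1 of 12 interferon-stimulated genes and 0 of 7 further Ly6 family genes. Markers of other cells gave 5 of 5 adipocyte, 1 of 10 endothelial, 1 of 8 keratinocyte and hair follicle and 1 of 5 Schwann cell genes. The counts were 0 of 8 for pericyte and smooth muscle, 0 of 5 for leukocyte and 0 of 3 for melanocyte and mast cell genes. Only the genes among the 67 are named next. Among the members these were Dpp4 (adjusted p 0.0247) and Cd248 (adjusted p 0.00235). Among other genes of Dpp4- and Pi16-positive fibroblasts they were Mfap5 (6.45e-04), Emilin2 (0.0039), Wnt2 (0.0046), Sema3c (0.022), Cd55 (0.0264), Efhd1 (0.0445), Anxa3 (0.0461) and Tppp3 (0.0497). Among preadipocyte genes they were F3 (8.03e-04), Fabp4 (0.00187), Lpl (0.0111) and Icam1 (0.0213), and among relatives of the members Fap (0.00491) and Thbd (0.0417). Pdpn (0.0269) of the papillary list also passed. Among markers of other cells, Lgr5 (0.00187), Cidec (0.00499), Cfd (0.00721), Adipoq (0.00993), S100b (0.0248) and Kdr (0.0337) passed.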

How the results depend on the processing

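The calls of Cd34 and Dpp4 on days 1 and 2 and of Cd248 on day 1 were kept in all alternatives run. The day 1 count of members was 3 to 4 and that of day 2 was 2 to 3, through Pi16 (lost without TMM, adjusted p 0.0799, without the filter, 0.118, and with the split covariate, 0.0614) and Cd248 (lost without TMM, -0.81 and adjusted p 0.148, and without the filter, 0.13). With the replicate block, Cd248 was lost on day 2 (0.103) and 0 members differed between days (Dpp4 0.0664, Cd248 0.0749). Same-numbered libraries correlated at -0.0664 to 0.164 on day 1, -0.0623 to -0.00327 on day 2 and 0.0795 to 0.146 on day 4, when 3 of 3 CTRL libraries correlated best with their own number. Leaving out a library, 1 to 2 members differed between days and 2 to 4 changed over days in EXP. Without the filter that count was 2, when more genes entered the adjustment, in a fit of EXP alone Cd34 was lost (0.135), and with the replicate block Pi16 was (0.134). Uncalled values near 0 changed sign in some fits; leaving out a library gave -0.72 to 0.39 for Pi16 on day 2, and on day 4 -0.60 to 0.46 for Pi16, -0.35 to 0.33 for Ly6a and -0.39 to 0.49 for Ly6c1. On day 4 and over days in CTRL the count was 0 in every alternative. Without TMM the median of all genes moved to 0.207, 0.489 and 0.363 on days 1, 2 and 4, and 66.2%, 90.5% and 80.7% of all calls were higher, against 48.7%, 57.5% and 57%. Under that scaling the day 2 list counts changed most (fibroblast identity genes 4 higher and 3 lower, relatives of the members 6 higher, papillary genes 3 higher and 0 lower, further Dpp4 and Pi16 genes 2 higher). Endothelial genes were then 2 higher on day 2, adipocyte genes 2, Schwann cell genes 1, and preadipocyte genes 1 lower, while relatives were 5 higher on day 4 and 1 lower on day 1. DESeq2 size factors gave 2 keratinocyte and 1 adipocyte gene lower on day 1. Over all genes, the calls of day 2 went from 2359 to 4631 without TMM and 4567 with limma voom, and to 891 without EXP replicate 1. Those of day 1 went from 5017 to 2210 within the high libraries, and those of day 4 from 3943 to 1128 with the day 4 groups alone, 1084 within the low libraries and 1633 without EXP replicate 1. Genes whose difference depended on the day went from 1549 to 2609 in DESeq2 and 401 with the replicate block, changes over days in EXP from 2502 to 1267 in EXP alone and 1432 with the block, and changes in CTRL from 51 to between 5 (without day 1 replicate 1) and 603 (limma voom). The precision is limited by 3 to 5 libraries in each group.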
